A study of Mus musculus with 106 samples.

Results

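The genes described here are 10 genes of the oxidative stress response, out of 21938 protein-coding genes whose promoters could be read in the series: Nfe2l2, Keap1, Hmox1, Gclm, Gclc, Nqo1, Txnrd1, Slc7a11, Srxn1 and Sqstm1. They were chosen by name and not by a rule on measured values, with earlier results of these data known. For each gene the peaks of H3K27ac and H3K4me3 were read at the promoter, taken as 1 kb to either side of any annotated transcription start site, and H3K27ac was also read across the gene body with 20 kb of flank. H3K27ac is a histone acetylation found at active promoters and enhancers, and H3K4me3 is a methylation concentrated at promoters.

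Nfe2l2 encodes NRF2, a transcription factor that KEAP1 holds in the cytoplasm and passes to a CUL3 ubiquitin ligase for degradation. Oxidants and electrophiles modify cysteines of KEAP1, NRF2 then accumulates, pairs with small MAF proteins and binds antioxidant response elements in the control regions of genes for glutathione synthesis, heme breakdown, quinone reduction and thioredoxin recycling. The autophagy receptor p62, encoded by Sqstm1, binds KEAP1 and can also release NRF2. In macrophages this response limits oxidative damage and tempers inflammatory activation.

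The mice were wild-type C57BL/6J animals of 12 to 14 weeks that were either control or made diabetic with streptozotocin, a toxin of pancreatic beta cells given intraperitoneally at 42 to 45 mg/kg/day for 5 days. Diabetic animals had a non-fasted glucose above 13.9 mmol/L, and tissue was taken 6 weeks after the last injection. The cells labelled HSC were bone marrow depleted of cells carrying CD3, CD4, B220, Ter119 or Gr1, so they are a lineage-depleted mixture and not a sorted stem cell population. Bone marrow-derived macrophages (BMDM) were grown for 7 days in L929-conditioned medium with 5 mmol/L glucose, so control and diabetic BMDM saw the same glucose. Some cultures then received LPS at 100 ng/mL and IFN-γ at 10 ng/mL for 16 h while the rest stayed unstimulated. The 16 h is the time stated for BMDM cultures in general, and no time is stated for the ChIP-seq cells. With each mark there were 6 libraries of control HSC, diabetic HSC, control unstimulated BMDM, control LPS+IFN-γ BMDM and diabetic LPS+IFN-γ BMDM, and 5 libraries of diabetic unstimulated BMDM, in which number 3 was not analysed here.

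The 35 H3K27ac lists held 51162 to 176559 peaks and the 35 H3K4me3 lists 13730 to 277213. At H3K27ac, 7 of 10 genes listed as markers of HSC and progenitors were higher in HSC than in unstimulated BMDM and 4 of the 9 macrophage markers tested were lower, beside 31.1% of all promoters called in either direction. Csf1r, the receptor through which L929-conditioned medium acts, was among the 4, at 47.7 to 88.9 in control and 46.3 to 57.0 in diabetic unstimulated BMDM. Msr1 had no peak in unstimulated BMDM and Lyz2 none in the diabetic ones. Higher in HSC were also 2 of 4 T cell, 1 of 5 neutrophil and 0 of 4 B cell markers by limma, with no B cell marker at an unadjusted p under 0.05. All 5 erythroid markers were also higher in HSC, where the mean percentile of that list was 47.6 to 70.7 against 31.7 to 39.3 in unstimulated BMDM. Nos2, a gene that LPS and IFN-γ induce, had H3K27ac percentiles of 38.7 to 76.4 in control unstimulated and 51.1 to 85.4 in control LPS+IFN-γ BMDM, so the labels overlapped. The diabetic values were 41.3 to 60.7 and 55.1 to 76.6. Of 9 LPS+IFN-γ response markers tested in H3K27ac, 2 were higher and 0 lower after LPS+IFN-γ by limma, beside 2.39% of all promoters. An unadjusted p under 0.05 was seen at 5 of the 9. In earlier work on these data some BMDM libraries were doubted against their stimulation label. In H3K27ac these were control unstimulated 5 and 6 and control LPS+IFN-γ 5. In H3K4me3 they were control unstimulated 6, control LPS+IFN-γ 6 and diabetic LPS+IFN-γ 1 and 2. Leaving them out by itself favours a difference between LPS+IFN-γ and unstimulated BMDM. Values of that comparison without them are a description with no test. Calls at the 10 promoters that involve BMDM and most of the larger disease differences are given with and without the doubted libraries. The pathway genes, the markers and the Sqstm1 H3K4me3 difference in LPS+IFN-γ BMDM are given only with them.

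Levels were expressed as a percentile. Within each library the 21938 promoters were ranked by the −log10 p of the best peak that touched them, and the gene's place was put on a scale from 0 to 100, with promoters without a peak tied at the bottom. That floor lay between the percentiles 10.3 and 29.6 and was higher in shorter lists. A percentile compares a promoter with the other promoters of its own library and is not an amount of histone mark, and in a mixed population a mark on more cells and a stronger mark per cell cannot be told apart. Genes with more start sites offer more bases for a peak, so the order between genes below is a description.

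The 10 promoters spanned almost the whole range of H3K27ac. The regulators stood at the top: the median over 35 libraries was 98.1 at Nfe2l2 (lowest 85.6, highest 99.7), 97.9 at Sqstm1 and 90.1 at Keap1. Srxn1, which encodes sulfiredoxin, the enzyme that repairs overoxidised peroxiredoxins, was as high at 96.8. The libraries of these 4 genes never fell below 74.3, a value of Keap1 in diabetic unstimulated BMDM. Txnrd1, encoding cytosolic thioredoxin reductase, had a median of 85.6. Gclm and Gclc, the modifier and catalytic subunits of the enzyme that makes the glutathione precursor γ-glutamylcysteine, had medians of 82.2 and 69.3. All 7 of these promoters carried an H3K27ac peak in all 35 libraries.

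The 3 remaining promoters were in the middle of the scale and lost their peak in some libraries. Hmox1, which encodes the inducible heme oxygenase, had a median of 57.2 and a peak in 34 libraries. Slc7a11, which encodes the cystine importer that feeds glutathione synthesis, had a median of 48.9 and a peak in 32. Nqo1, encoding a quinone reductase, had a median of 48.2 and a peak in 29, the fewest of the 10. The widest spread of a single gene was that of Slc7a11, from 17.3 to 97.8.

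**Figure D1:**
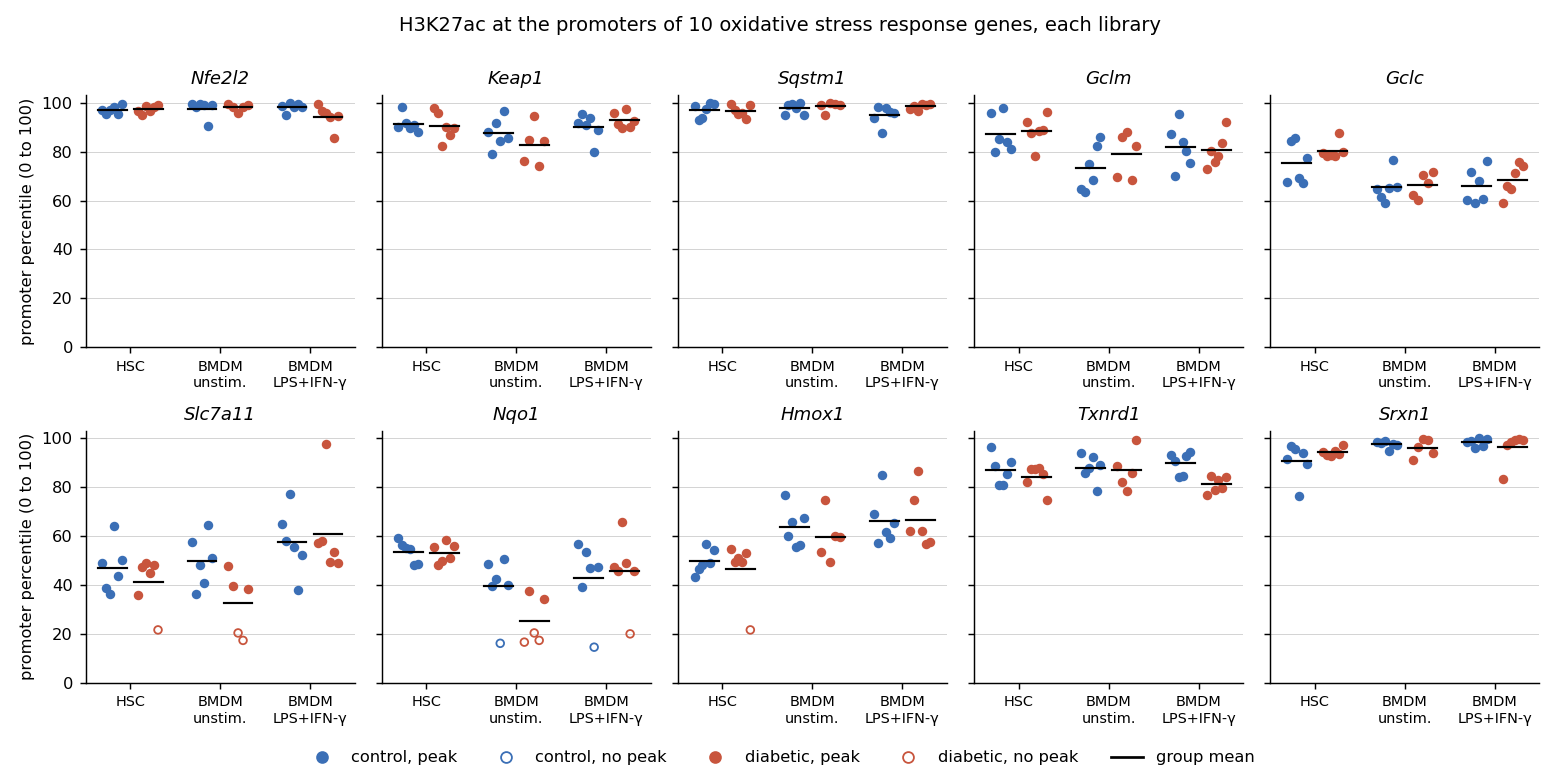
H3K27ac promoter percentile (0 to 100) of the 10 genes in each of 35 libraries, by cell state on the x axis and disease by colour, with open circles for libraries without a peak and a bar at the group mean. Nfe2l2, Sqstm1 and Srxn1 sit near the top throughout, while Nqo1 and Slc7a11 drop to the floor in 3 and 2 of the 5 diabetic unstimulated BMDM libraries.

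H3K4me3 gave another order. The highest medians were 87.3 at Gclm, 86.7 at Keap1, 84.6 at Sqstm1 and 82.8 at Nfe2l2, followed by Txnrd1 at 76.8, Gclc at 76.6 and Srxn1 at 71.7, all with a peak in 35 of 35 libraries. Hmox1 was at 43.8 with a peak in 34 libraries. Nqo1 (27.9, a peak in 18 libraries) and Slc7a11 (22.7, a peak in 17) lay near the floor, so both had H3K27ac in most libraries and H3K4me3 in about every other one. Differences between libraries at the floor are not detectable at this depth.

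**Figure D2:**
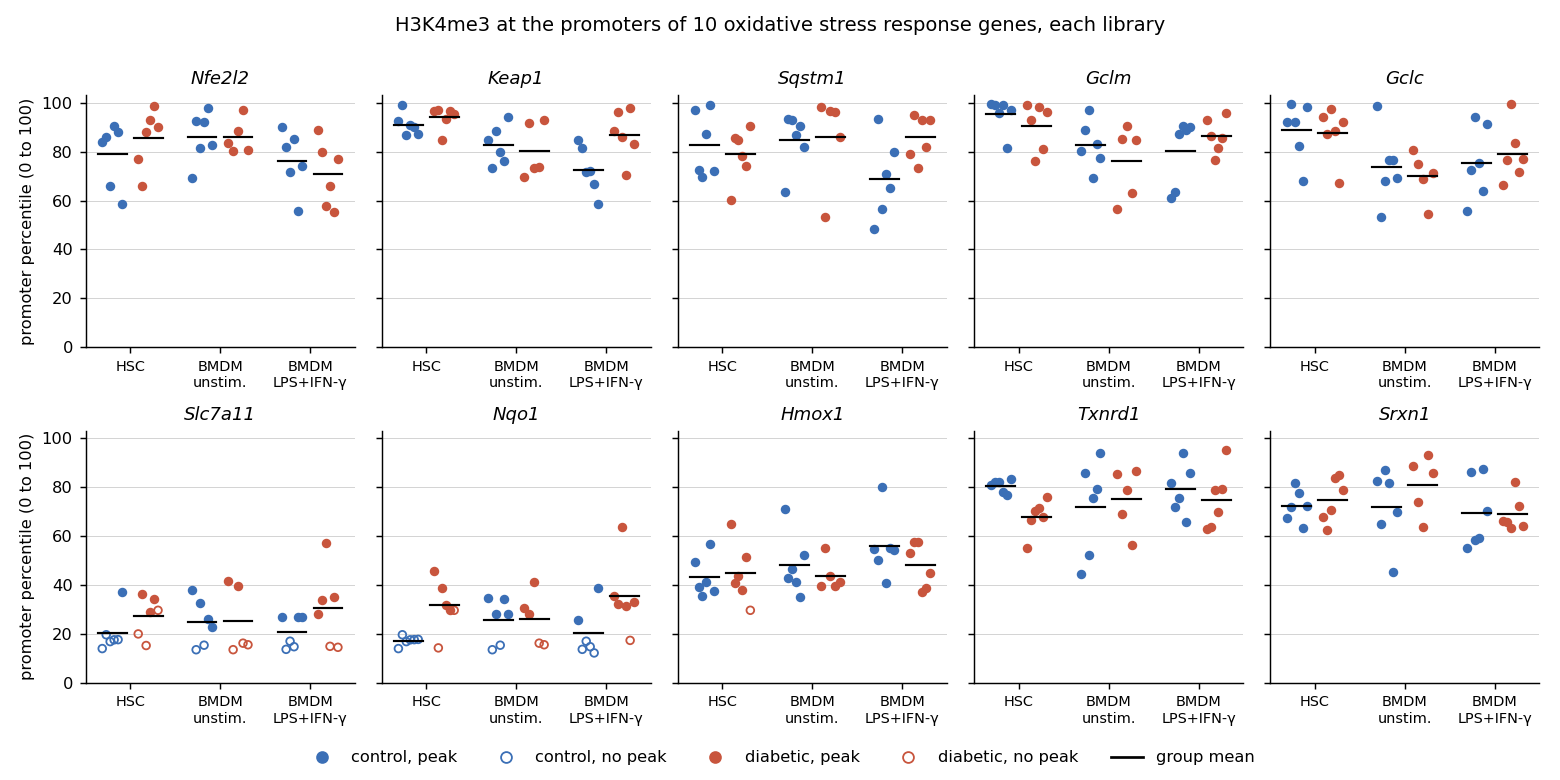
H3K4me3 promoter percentile (0 to 100) of the 10 genes in each of 35 libraries, drawn as for H3K27ac. Slc7a11 and Nqo1 have many libraries without a peak (open circles), and at Txnrd1 the diabetic HSC libraries (55.2 to 75.9) lie below the control HSC libraries (76.8 to 83.4).

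Promoter sequence is shown for 4 genes that differ in level and behaviour: Gclm and Srxn1, marked in every library, and Nqo1 and Slc7a11, marked in some. The bases come from the RefSeq promoter table and lie on GRCm38 and end before the first annotated transcript base, written 5′ to 3′ on the gene's own strand. RefSeq entries were found for 8 of the 10 genes. Hmox1 and Gclc were not among them. Capitals mark the antioxidant response element letters TGACNNNGC or the related letters TGANTCAGC, searched on both strands, and in Slc7a11 the letters TGATGCAA, known as the amino acid response element bound by ATF4. A stretch such as TGACTCAGC holds both of the first motifs. The Gclm promoter, chr3:122245307-122245556 (plus strand), holds TGACNNNGC on the opposite strand 134 bases before the start. The Srxn1 promoter, chr2:152105274-152105515 (plus strand), holds TGANTCAGC 45 bases before the RefSeq start at 152105524. That start lies a few bases past the end of the window shown. The Nqo1 promoter, chr8:107403207-107403455 (minus strand), holds neither in this window. The Slc7a11 promoter, chr3:50443615-50443863 (minus strand), holds TGATGCAA on each strand, 66 and 47 bases before the RefSeq start at 50443613.
Gclm: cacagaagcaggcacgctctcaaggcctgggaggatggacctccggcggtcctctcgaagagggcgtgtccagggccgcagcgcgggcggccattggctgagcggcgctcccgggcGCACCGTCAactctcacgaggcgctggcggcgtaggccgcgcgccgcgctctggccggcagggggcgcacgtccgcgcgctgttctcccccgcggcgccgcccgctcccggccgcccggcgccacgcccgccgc
Srxn1: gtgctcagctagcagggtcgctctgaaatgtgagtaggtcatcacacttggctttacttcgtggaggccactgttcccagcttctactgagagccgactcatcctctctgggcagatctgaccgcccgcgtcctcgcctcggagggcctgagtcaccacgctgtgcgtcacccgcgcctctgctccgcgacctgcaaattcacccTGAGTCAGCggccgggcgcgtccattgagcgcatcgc
Nqo1: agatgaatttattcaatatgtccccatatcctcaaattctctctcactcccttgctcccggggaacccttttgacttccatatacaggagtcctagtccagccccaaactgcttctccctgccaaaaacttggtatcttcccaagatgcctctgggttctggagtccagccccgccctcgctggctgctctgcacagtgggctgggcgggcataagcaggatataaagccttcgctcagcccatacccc
Slc7a11: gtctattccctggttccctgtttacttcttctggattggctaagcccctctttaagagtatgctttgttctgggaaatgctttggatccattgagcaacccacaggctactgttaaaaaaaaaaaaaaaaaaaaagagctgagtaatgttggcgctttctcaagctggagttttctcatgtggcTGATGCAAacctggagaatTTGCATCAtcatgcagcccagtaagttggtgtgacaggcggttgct
Over all 32851 RefSeq promoters of 300 bases, 12.4% held TGACNNNGC and 1.19% TGANTCAGC. Of the 8 genes with a RefSeq entry, 4 held TGACNNNGC and 1 held TGANTCAGC in these 300 bases. TGATGCAA was looked for only after the Slc7a11 promoter had been read. It was in 0.895% of promoters, and 2 or more copies were in 2 promoters of 32851 (0.00609%). A match is a run of letters and not a measured binding site.

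Start sites showed which end of a gene carried the mark. Hmox1 on chromosome 8 has an upstream start at 75093621 and a second one at 75096844 within the gene. The upstream start had H3K27ac in 11 of 12 HSC and 23 of 23 BMDM libraries. At the inner start H3K27ac was present in 2 of 12 HSC and 22 of 23 BMDM libraries, and the H3K4me3 counts there were the same, 2 of 12 and 22 of 23. H3K27ac over Hmox1 thus reached into the gene in BMDM and rarely in HSC. Sqstm1 on chromosome 11 showed the same trend at the inner start 50207319, with H3K27ac in 7 of 12 HSC and 22 of 23 BMDM libraries and H3K4me3 in 4 of 12 and 22 of 23. These counts are descriptions with no test. The H3K4me3 lists held a median of 49624 peaks in control and 89111 in diabetic HSC. In unstimulated BMDM the medians were 161117 in control and 96580 in diabetic libraries. The part of list length in these counts was not tested. At Slc7a11 H3K27ac lay at the starts between 50443605 and 50443614 on chromosome 3 in 32 libraries, against 2 libraries at the inner start 50370799. The promoter window of Sqstm1 also holds the start of Mgat4b, which is read in the opposite direction, so the marks of these genes cannot be told apart.

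On GRCm38 the genes lie as follows. Nfe2l2 is at chr2:75675513-75704641 and Srxn1 at chr2:152105516-152111376. Gclm (chr3:122245557-122270732) and Slc7a11 (chr3:49892526-50443614) share chromosome 3, Hmox1 (chr8:75093621-75100589) and Nqo1 (chr8:107388225-107403206) chromosome 8, and Keap1 (chr9:21229730-21239361) and Gclc (chr9:77754535-77794485) chromosome 9. Txnrd1 is at chr10:82833951-82897712 and Sqstm1 at chr11:50199366-50210827. Nqo1 has 1 annotated start site, Nfe2l2, Hmox1 and Srxn1 have 2 each, and Txnrd1 has the most with 8.

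The first comparison asked how the promoters differed between lineage-depleted marrow and the macrophages grown from marrow. In H3K27ac 5 of 10 promoters were called, 4 higher and 1 lower in HSC. Over all 16981 promoters tested 31.1% were called, so a call here is common and nothing particular to these genes is read from the count. The median difference of the 10 genes was 1.12 percentile points, and that of all promoters 0.298.

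Nqo1 and both subunits of glutamate-cysteine ligase were higher in HSC. At Nqo1 the H3K27ac percentile was 48.2 to 59.2 (median 54.9) in 12 HSC libraries, all with a peak, and 16.1 to 50.5 (median 37.5) in 11 unstimulated BMDM libraries, 7 with a peak. The groups overlapped only between 48.2 and 50.5, and the fitted means were 53.4 and 32.4, a difference of 21.0 ± 4.28 (SE, limma, adjusted p = 0.000194). Gclc ranged from 67.3 to 87.5 (median 78.3) in HSC and from 59.0 to 76.7 (median 65.2) in unstimulated BMDM. Its difference was 11.8 ± 2.81 (adjusted p = 0.00119). Gclm, its partner, went from 78.2 to 97.7 (median 88.1) in HSC and from 63.6 to 88.0 (median 74.9) in unstimulated BMDM, a difference of 11.9 ± 3.18 (adjusted p = 0.00369). Ranked by fold enrichment in place of the p value, Gclm differed by 7.59 and was not called (adjusted p = 0.226).

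Hmox1 was the one gene lower in HSC. Its H3K27ac percentile was 21.6 to 56.7 (median 49.3) in HSC and 49.3 to 76.5 (median 59.9) in unstimulated BMDM, with overlap, and the difference was −13.5 ± 3.87 (adjusted p = 0.00663). The lowest HSC value is diabetic library 6, the shortest H3K27ac list with 51162 peaks, which had no Hmox1 peak. Without any 1 library the call held. The percentile takes the best peak over both start sites of Hmox1. At the inner start a peak was present in 2 of 12 HSC and 22 of 23 BMDM libraries, and at the upstream start in 11 and 23. Which start the difference came from was not tested. Keap1 was at the edge of the threshold: 82.4 to 98.2 (median 90.1) in HSC against 74.3 to 96.7 (median 84.8), a difference of 5.77 ± 2.28 (adjusted p = 0.0492). It was called without each of 6 of the 23 libraries and not called without each of the other 17, where the difference was 4.71 to 6.02 and the adjusted p 0.0517 to 0.116. By fold enrichment it differed by 3.24 (adjusted p = 0.557), and it was also not called by log2 rank, by summit, in a 500 bp window or without the filter. Without the 3 doubted libraries the same 5 promoters were called, with differences of 22.4 at Nqo1, 13.2 at Gclc, 14.6 at Gclm, −13.9 at Hmox1 and 6.66 at Keap1, beside 29.5% of all promoters. Srxn1 (−4.42 ± 1.87, adjusted p = 0.0666) was not called. The remaining 4 genes, Nfe2l2, Sqstm1, Txnrd1 and Slc7a11, differed by −1.78 to 2.99 points with adjusted p values of 0.479 to 0.714.

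In H3K4me3 the HSC promoters of Gclc, Gclm and Keap1 were called higher, 3 of 10 against 17.0% of 17255 promoters tested. Gclc ranged from 67.3 to 99.4 (median 92.0) in HSC and from 53.4 to 98.6 (median 71.4) in unstimulated BMDM, a difference of 16.4 ± 5.21 (adjusted p = 0.0246). Gclm ranged from 76.1 to 99.5 (median 96.6) and from 56.7 to 97.0 (median 83.1), a difference of 13.6 ± 4.46 (adjusted p = 0.0283). Keap1 ranged from 84.6 to 99.0 (median 92.8) and from 69.7 to 94.0 (median 79.9), a difference of 11.0 ± 4.05 (adjusted p = 0.0493). In each gene the libraries of the groups overlapped. The same 3 genes were higher in HSC in H3K27ac. In H3K4me3 the Gclc call was lost by log2 rank (adjusted p = 0.0984), that of Gclm by fold enrichment (adjusted p = 0.0988) and that of Keap1 by fold enrichment (adjusted p = 0.243) and 5 other settings. Gclc was also lost without control unstimulated BMDM 2 (14.3, adjusted p = 0.0530) or diabetic unstimulated BMDM 5 (14.4, adjusted p = 0.0526), and Gclm without diabetic HSC 1 (12.8, adjusted p = 0.0516), diabetic unstimulated BMDM 1 (11.2, adjusted p = 0.0793) or diabetic unstimulated BMDM 5 (12.0, adjusted p = 0.0584). Without the 4 doubted H3K4me3 libraries the same 3 genes were called, beside 14.7% of all promoters. Keap1 was called without each of 5 of the 23 libraries and lost without each of the other 18, with differences of 9.73 to 11.5 and adjusted p values of 0.0532 to 0.103. Nqo1 and Hmox1, which differed in H3K27ac, had H3K4me3 differences of −1.51 ± 3.97 (adjusted p = 0.820) and −2.03 ± 4.72 (adjusted p = 0.798). The erythroid markers that moved with the HSC label are given above, and their part in these results was not tested.

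**Figure D3:**
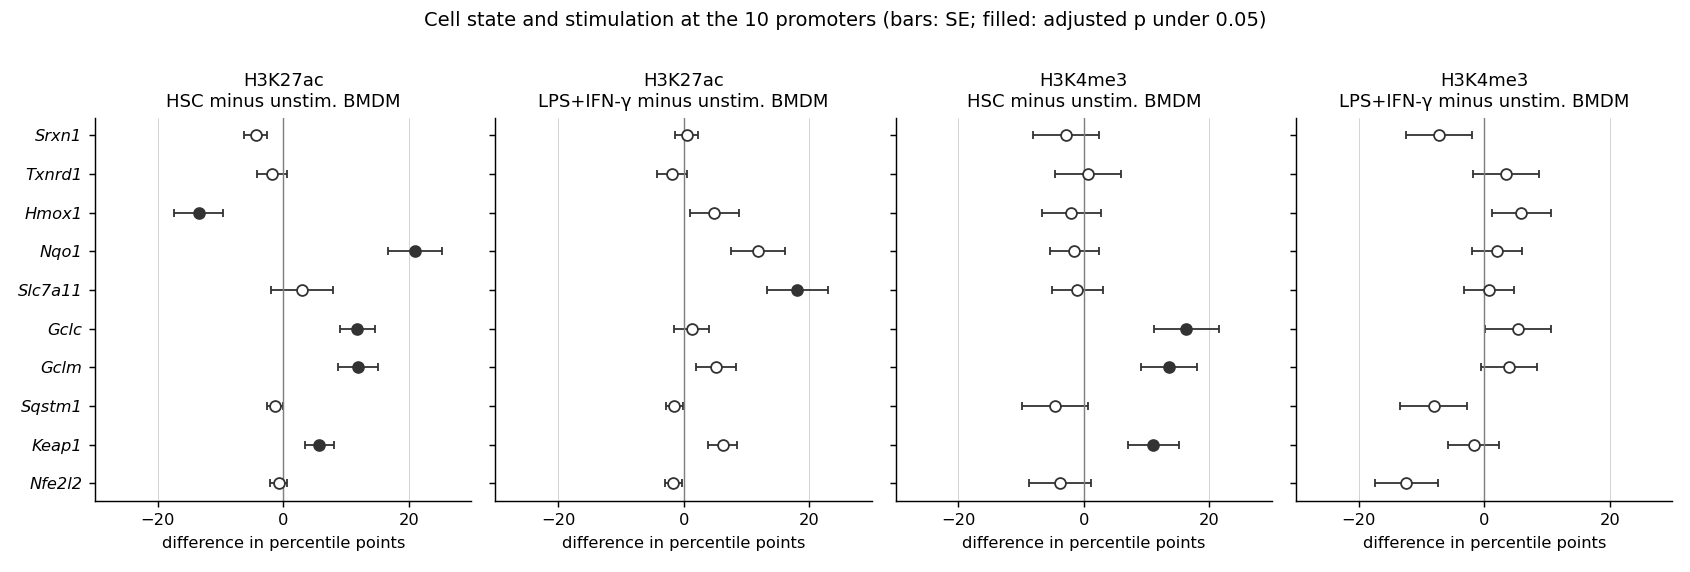
Difference in promoter percentile points for each of the 10 genes, HSC minus unstimulated BMDM and LPS+IFN-γ minus unstimulated BMDM, in H3K27ac and H3K4me3, each averaged over control and diabetic, with bars for 1 SE. Filled points are called: 5 and 1 genes in H3K27ac, and 3 and 0 in H3K4me3, with Nqo1 (21.0) and Hmox1 (−13.5) the farthest apart in the first panel.

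The second comparison asked what LPS+IFN-γ did to the same promoters in BMDM. In H3K27ac 1 of 10 was called, against 2.39% of all promoters tested. It was Slc7a11, the cystine importer, which ranged from 38.0 to 77.1 (median 56.7) in control and from 48.9 to 97.8 (median 55.3) in diabetic LPS+IFN-γ BMDM. Unstimulated, it ranged from 36.2 to 64.3 (median 49.4) in control BMDM, and the 5 diabetic libraries were at 47.5, 39.4, 20.4, 17.3 and 38.5, the values 20.4 and 17.3 being the floor of lists without a peak. All 12 stimulated libraries had a peak and 9 of the 11 unstimulated ones, and the groups overlapped. The fitted means were 59.2 and 41.1, a difference of 18.1 ± 4.88 (limma, adjusted p = 0.0346).

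The Slc7a11 call depended on the processing and on several single libraries. It was lost with the replicate number as a block (15.9, adjusted p = 0.0741), ranked by fold enrichment (19.5, adjusted p = 0.144), by log2 rank (adjusted p = 0.1602) and without the filter (adjusted p = 0.0723). Diabetic LPS+IFN-γ library 3 stood at 97.8, with the next at 58.0, and without it the difference was 14.4 (adjusted p = 0.0736). The call was also lost without control unstimulated 2, 3 or 4, diabetic unstimulated 4 or 5, or control LPS+IFN-γ 1 or 3, where the adjusted p was 0.0529 to 0.0813. Without the 3 doubted libraries, and thus with 2 of the control unstimulated and 1 of the control stimulated left out, 3 of the 10 promoters were called higher: Slc7a11 by 22.1 ± 5.09 (adjusted p = 0.00587), Nqo1 by 16.2 ± 4.12 (adjusted p = 0.0133) and Keap1 by 8.13 ± 2.30 (adjusted p = 0.0254). The share of all promoters called rose with them to 6.74%. The libraries left out were doubted against their stimulation label, which by itself favours a difference. These values are therefore a description with no test. With all libraries Nqo1 and Keap1 had differences of 11.9 ± 4.28 (limma, adjusted p = 0.126) and 6.23 ± 2.28 (adjusted p = 0.132). The 7 others had adjusted p values of 0.402 to 0.928, and Hmox1, the inducible heme oxygenase, differed by 4.93 ± 3.87 (adjusted p = 0.532).

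In H3K4me3 no promoter in the genome was called between LPS+IFN-γ and unstimulated BMDM (0% of 17255 by limma, with 967 at an unadjusted p under 0.05). The smallest p values among the 10 were at Nfe2l2, where LPS+IFN-γ libraries averaged 73.5 and unstimulated ones 85.95, a difference of −12.4 ± 4.98 (adjusted p = 0.850), and at Sqstm1, with 77.4 and 85.5 and a difference of −8.04 ± 5.31 (adjusted p = 0.944). Both sets of libraries overlapped. Without the doubted libraries the Nfe2l2 difference was −15.9 (adjusted p = 0.894).

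Outside the promoters the 10 loci held 26 H3K27ac regions, out of 27703 such regions in the genome. A region was a stretch covered by the top 20000 peaks of at least 2 of the 35 libraries, and its percentile ranks it among the 27703 regions of a library. Nfe2l2 and Keap1 had 5 regions each, Txnrd1 4, Slc7a11 3, Srxn1, Gclc, Hmox1 and Sqstm1 2 each, Gclm 1 and Nqo1 none. Between HSC and unstimulated BMDM 15 of the 26 were called, 7 higher and 8 lower in HSC (57.7%), against 50.4% of the 27652 regions tested, so the share is near that of all regions. Without the 3 doubted libraries 14 were called, against 48.1%. The rule by which regions were formed bears on these counts. For regions higher in HSC the unstimulated and LPS+IFN-γ BMDM libraries were counted together, and for regions lower in HSC those of HSC. On that side 9 of the 15 had fewer than 2 libraries with a top 20000 peak, 4 of them higher and 5 lower in HSC. These 9 entered the set through the cells where they were high, which by itself favours a difference. Their values are given below as a description with no test. The other 6 were regions 1 and 5 of Nfe2l2, Gclm region 1, both regions of Hmox1 and Keap1 region 2. Of these, Nfe2l2 region 1, Gclm region 1 and Hmox1 region 1 were each held by only 1 unstimulated BMDM library. They were held by 4, 1 and 7 LPS+IFN-γ libraries. Against unstimulated BMDM alone the rule favours a difference there too, so their values are likewise a description with no test. On the top 20000 peaks of each list 4 of the 26 were called, beside 5078 of the 13677 regions tested in that setting. Regions with such a peak in fewer than 5 libraries, some of the 26 among them, were not tested there.

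The Nfe2l2 promoter stood near the top of the H3K27ac scale in both cell states, where a rank has little room to differ. Nfe2l2 region 1 at chr2:75681892-75683725, an intron 21.8 kb into the gene, was at 87.1 to 99.4 (median 97.4) in 12 HSC libraries, each of which held it among its top 20000 peaks. In unstimulated BMDM it was at 11.0 to 85.6 (median 50.1), with a peak in 7 of 11. The libraries of the 2 cell states did not overlap, which was true of 825 of the 27652 regions in this direction (2.98%). The difference was 49.8 ± 8.93, and 47.4 without the doubted libraries, given as a description with no test. Nfe2l2 region 3 at chr2:75685665-75686537, also intronic, was at 13.03 to 85.3 (median 75.8) in HSC and 10.3 to 79.1 (median 24.7) in unstimulated BMDM, a difference of 37.2 ± 7.71 points. It was among the top 20000 peaks of 2 HSC libraries and 1 BMDM library, and regions 2 and 4 of the gene of 3 HSC libraries each and no BMDM library, so all 3 entered the set through HSC. Region 5, nearest to the start, was called lower in HSC and was held by 4 HSC, 8 unstimulated and 11 LPS+IFN-γ libraries.

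Keap1 region 4 at chr9:21233134-21234398, over an exon and intron of the gene, entered the set through BMDM, with 0 HSC, 7 unstimulated and 8 LPS+IFN-γ libraries holding it. It was at 15.6 to 63.8 (median 34.9) in HSC and at 29.6 to 94.9 (median 83.1) in unstimulated BMDM, a difference of −37.1 ± 7.09 with overlap. Txnrd1 region 4 at chr10:82899429-82900700, past the end of the gene, was held by 4 HSC libraries and no BMDM library. It was at 46.6 to 92.2 (median 71.1) in HSC against 11.0 to 59.0 (median 27.2), a difference of 37.9 ± 8.37. Slc7a11 region 1 at chr3:50383719-50384751, over an exon and intron 59.4 kb into the gene, was nearly empty in HSC, with a peak in 1 of 12 libraries (11.1 to 30.3, median 16.4). In unstimulated BMDM it was at 11.5 to 92.7 (median 61.3), a difference of −29.3 ± 6.80. It was held by 0 HSC, 1 unstimulated and 8 LPS+IFN-γ libraries, and ranked on the top 20000 peaks the difference was −4.01 and not called (adjusted p = 0.684).

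Slc7a11 region 1 was also the 1 region of the 26 called after LPS+IFN-γ, against 4.59% of all regions, and since it entered the set through LPS+IFN-γ BMDM its values are a description with no test. All 12 stimulated libraries had a peak there, at 48.9 to 92.7 (median 83.9), and 7 of the 11 unstimulated ones did. The difference was 31.6 ± 6.80. The unstimulated libraries were not alike: the control values were 35.1 to 92.7 (median 68.9), with a peak in 6 of 6, while the diabetic values were 15.2, 61.3, 27.2, 19.7 and 11.5, with a peak in the second of these only. That diabetic-minus-control difference, picked out after its values were seen, was −39.9 ± 9.84 (adjusted p = 0.167), or −34.5 without the doubted libraries (adjusted p = 0.407), and the libraries overlapped. Without the 3 doubted libraries 4 of the 26 regions were called after LPS+IFN-γ, against 9.38% of all regions: Slc7a11 regions 1 and 2 and Hmox1 region 1 with differences of 34.0, 34.35 and 31.6 points, and Srxn1 region 2 with −31.7. Slc7a11 region 2 too was held by 1 unstimulated and 8 LPS+IFN-γ libraries. As at the promoters, the values without the doubted libraries are a description with no test.

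**Figure D4:**
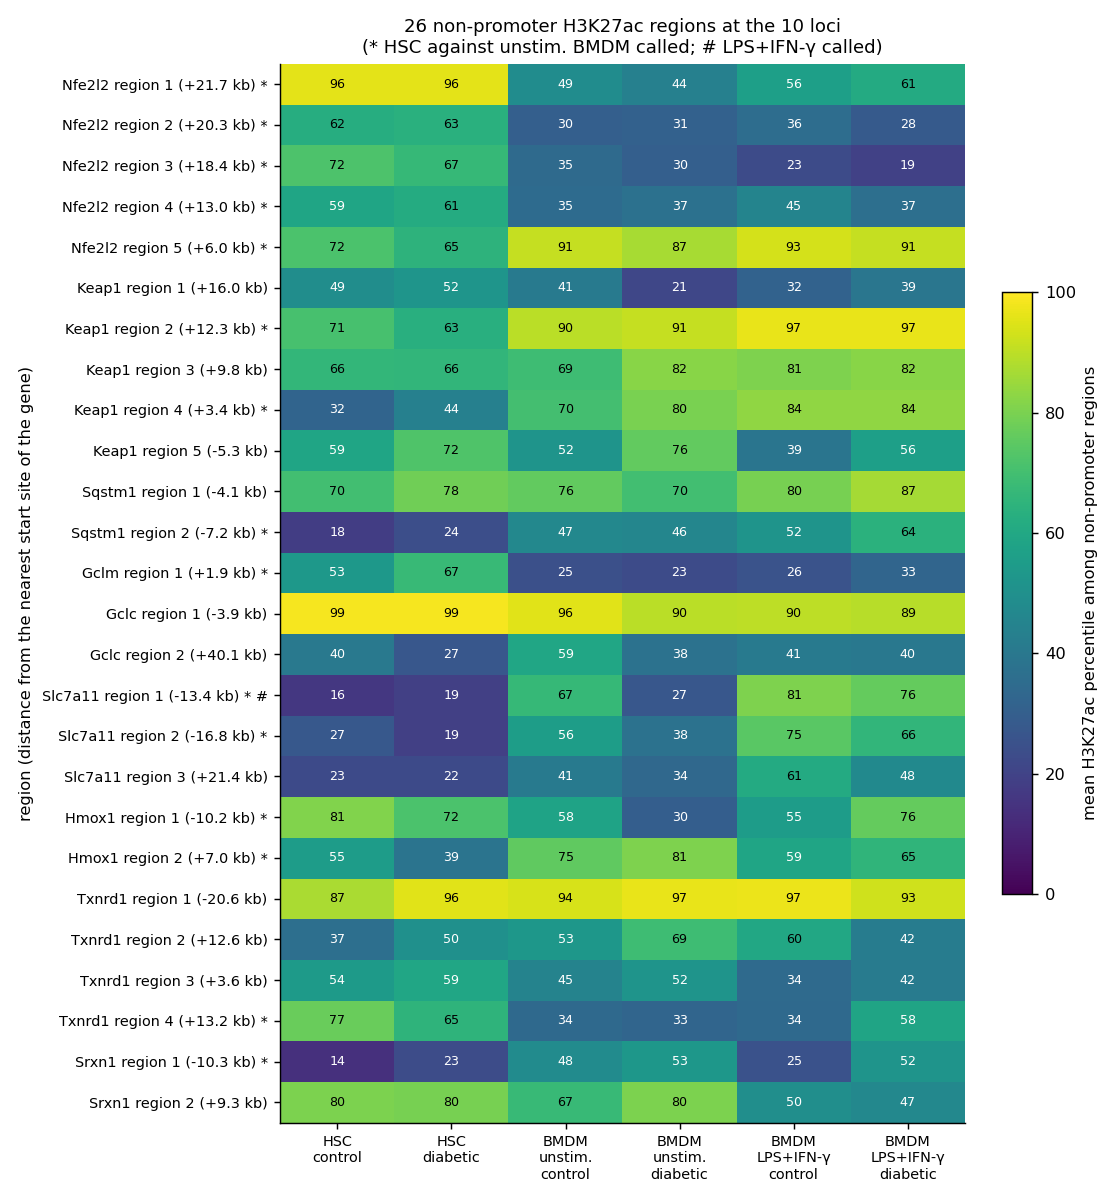
Mean H3K27ac percentile of the 26 non-promoter regions at the 10 loci in the 6 groups, with the distance from the nearest annotated start site of the gene in kb (some starts lie inside the gene). Stars mark the 15 regions called between HSC and unstimulated BMDM and the hash mark the 1 region called after LPS+IFN-γ; Nfe2l2 region 1 stands at 96.05 and 95.9 in the HSC groups and at 43.7 to 60.95 in BMDM.

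Regions upstream of Hmox1 and Gclc, named after their values were seen, carry the sequence of the motifs. Hmox1 region 1 at chr8:75082164-75084576 lies between genes, 10.25 kb before the first start, and holds the letters of TGANTCAGC 3 times, each on the minus strand and so written GCTGAGTCA in capitals. Gclc region 1 at chr9:77749850-77751494 lies between genes 3.86 kb before the start and holds it once. The windows shown, both from the plus strand of GRCm38, are chr8:75083832-75084131 for Hmox1 and chr9:77750599-77750898 for Gclc, and neither overlaps an exon.
Hmox1 region 1: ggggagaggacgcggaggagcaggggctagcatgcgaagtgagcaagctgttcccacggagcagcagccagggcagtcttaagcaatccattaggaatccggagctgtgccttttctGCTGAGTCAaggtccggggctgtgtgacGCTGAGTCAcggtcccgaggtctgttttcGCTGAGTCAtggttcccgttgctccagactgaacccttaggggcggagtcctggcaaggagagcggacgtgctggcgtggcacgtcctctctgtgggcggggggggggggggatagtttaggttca
Gclc region 1: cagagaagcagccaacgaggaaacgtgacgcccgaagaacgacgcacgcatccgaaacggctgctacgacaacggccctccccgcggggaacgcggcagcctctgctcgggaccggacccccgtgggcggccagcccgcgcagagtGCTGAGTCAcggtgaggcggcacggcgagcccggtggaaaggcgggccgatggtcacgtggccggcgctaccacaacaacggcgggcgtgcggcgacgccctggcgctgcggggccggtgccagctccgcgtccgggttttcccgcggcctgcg
Over windows of the same length as Hmox1 region 1, centred on the 27703 regions, 11.1% held TGANTCAGC at all and 0.119% (33) held it 3 or more times. For the length of Gclc region 1 the share was 8.06%. Counted over whole regions, 6.66% held TGANTCAGC and 38.7% TGACNNNGC, and at the 10 loci 3 and 10 of 26 did. Besides Hmox1 region 1 and Gclc region 1, TGANTCAGC was in Sqstm1 region 1, which is 5360 bases long. There it lay at 50212536, 50212933 and 50216682 on chromosome 11, as many times as in Hmox1 region 1. No share was computed for that length.

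Hmox1 region 1 was at 58.8 to 92.1 (median 80.2) in HSC and at 15.2 to 95.3 (median 43.7) in unstimulated BMDM. The difference was 32.3 ± 8.41, and 37.5 without the doubted libraries, given as a description with no test. This is the opposite direction to the Hmox1 promoter, which was lower in HSC. Hmox1 region 2 at chr8:75103326-75104455, behind the gene and nearer to the start of Mcm5, went the way of the promoter, with a difference of −31.3 ± 9.15 (adjusted p = 0.00451) and −33.15 without the doubted libraries (adjusted p = 0.00554). Gclc region 1 carried a peak in all 35 libraries and ranked high, at 97.1 to 99.6 (median 99.1) in HSC and 74.0 to 97.7 (median 95.8) in unstimulated BMDM. Its difference of 6.16 ± 2.85 was not called (adjusted p = 0.0690). In LPS+IFN-γ BMDM it was at 64.2 to 98.7 (median 94.3).

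Of 50 other genes of the pathway, 49 could be tested in H3K27ac, and 15 differed between HSC and unstimulated BMDM, 9 higher and 6 lower in HSC, beside 31.1% of all promoters. Their median difference was −0.510, and that of all promoters 0.298. The glutathione genes gave 3 higher and 2 lower of 11 tested, among them Abcc1, an exporter of glutathione conjugates, at 68.1 in HSC and 85.0 in unstimulated BMDM (−16.9, adjusted p = 4.96e-05), and Slc3a2, the heavy chain that pairs with the Slc7a11 product, at 87.6 and 95.7 (−8.07, adjusted p = 0.00905). The NRF2 partners and repressors gave 4 higher and 1 lower of 12. Nfe2, an NRF2 relative of the erythroid and megakaryocyte lineages, was at 82.5 and 65.9 (16.6, adjusted p = 5.37e-05), Mafk, a small MAF protein, at 97.6 and 90.6 (6.99, adjusted p = 0.00146), and Bach2, a repressor at MAF elements, at 77.0 and 64.8 (12.2, adjusted p = 0.00215).

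Of the NADPH genes 1 was higher and 1 lower of 6. Pgd, an enzyme of the pentose phosphate pathway, was at 70.0 in HSC and 83.2 in unstimulated BMDM (−13.2, adjusted p = 0.00105). The thioredoxin and peroxiredoxin list gave 1 higher and 1 lower of 11, the iron and heme list 1 lower of 6, and the superoxide and peroxide list no call of 3 by limma, with none at an unadjusted p under 0.05. After LPS+IFN-γ, 1 of 49 was called, Osgin1, an NRF2-induced growth inhibitor, at 72.2 against 57.3 (14.9, limma, adjusted p = 0.0224), beside 2.39% of all promoters. How far the Osgin1 call depends on the processing or on single libraries was not tested. In H3K4me3, 4 of 50 differed between HSC and unstimulated BMDM, beside 17.0% of all promoters. Gpx4, the lipid peroxide reductase, was higher in HSC (87.3 and 66.0, adjusted p = 0.00695), as was Cul3, the ligase scaffold of KEAP1 (82.9 and 65.5, adjusted p = 0.0212). Osgin1 (27.4 and 48.6, adjusted p = 0.0101) and Blvrb, a biliverdin reductase downstream of heme oxygenase (61.1 and 81.5, adjusted p = 0.0158), were lower.

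The third comparison asked whether diabetes left a difference at these promoters in HSC and in the BMDM grown from diabetic marrow. In H3K27ac none of the 10 was called in HSC, unstimulated or LPS+IFN-γ BMDM, and none of the 16981 promoters was (0% by limma in each, with 339, 989 and 807 at an unadjusted p under 0.05). In diabetic minus control HSC the 10 differences ran from −5.89 to 5.07 points with SEs of 1.83 to 6.73. The smallest p values were at Srxn1, with means of 94.1 in diabetic and 90.6 in control (3.59 ± 2.57, adjusted p = 1.00), and at Gclc, with 80.2 and 75.2 (5.07 ± 3.88, adjusted p = 1.00).

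In unstimulated BMDM the 2 promoters with the smallest p were those with the most missing peaks. Slc7a11 had means of 32.6 in diabetic and 49.6 in control (a difference of −17.0 ± 7.06, limma, adjusted p = 0.7997). Nqo1 was at 16.6, 37.5, 20.4, 17.3 and 34.3 in the 5 diabetic libraries, of which 2 had a peak, and at 16.1 to 50.5 (median 41.2) in the 6 control libraries, of which 5 had one. Diabetic values were mostly at the floor, and the groups overlapped. The difference was −14.3 ± 6.20 (adjusted p = 0.7997). The diabetic lists held 54313 to 175991 peaks and the control ones 54408 to 169361. The diabetic libraries with a Nqo1 peak, 2 and 6, had the longest diabetic lists, 175991 and 111095 peaks, and those without, 1, 4 and 5, held 105751, 54313 and 72333. Control library 4, without a peak, held 80055, and control library 5, a doubted library with a peak, 54408. The part of list length in these differences was not tested. Without the doubted libraries the differences were −12.99 at Slc7a11 and −11.4 at Nqo1 (adjusted p = 0.931 for both). All 9 macrophage markers tested also had lower means in diabetic than in control unstimulated BMDM, by differences of −0.902 to −15.9, none of them called by limma and 1 at an unadjusted p under 0.05, and their part was not tested.

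In LPS+IFN-γ BMDM the smallest p was at Txnrd1, which was at 76.8 to 84.5 (median 81.2) in diabetic and 84.2 to 94.3 (median 91.7) in control libraries. The groups met at 84.2 to 84.5, and the difference was −8.80 ± 3.23 (adjusted p = 0.988). Nfe2l2 followed, at 85.6 to 99.3 (median 95.1) and 95.0 to 99.7 (median 98.4), with overlap and a difference of −3.94 ± 1.89 (adjusted p = 0.988). Without the doubted libraries these differences were −8.24 and −3.66 (adjusted p = 0.996 for both). Slc7a11 and Nqo1, low in unstimulated diabetic BMDM, had means of 60.8 and 45.5 in diabetic and 57.6 and 43.0 in control LPS+IFN-γ BMDM. Without the doubted control library 5 the diabetic means were the lower ones, by differences of −0.803 and −3.12.

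H3K4me3 likewise had no call at the 10 promoters or at any other in HSC, unstimulated or LPS+IFN-γ BMDM (0% of 17255 by limma in each, with 796, 691 and 888 at an unadjusted p under 0.05). Nqo1 had the smallest p in both HSC and LPS+IFN-γ BMDM. None of the 6 control HSC libraries had a Nqo1 peak (14.0 to 19.6, median 17.6), and 4 of the 6 diabetic ones did (14.2 to 45.5, median 30.9). The diabetic libraries thus ran higher, but 1 without a peak lay within the control range, and the 29.6 of the other without a peak is the floor of the shortest list, which held 13730 peaks. The difference was 14.4 ± 5.48 (adjusted p = 1.00). The 4 diabetic lists with the peak held 39412, 82772, 120524 and 145750 peaks, and the control lists 37378 to 109214.

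In LPS+IFN-γ BMDM, Nqo1 had an H3K4me3 peak in 2 of 6 control libraries (12.2 to 38.7, median 15.8) and in 5 of 6 diabetic ones (17.3 to 63.6, median 32.7), with a difference of 15.2 ± 5.48 (adjusted p = 0.900). Keap1 was at 70.5 to 97.8 (median 87.2) in diabetic and at 58.5 to 84.7 (median 71.8) in control libraries, a difference of 14.4 ± 5.58 (adjusted p = 0.908). Diabetic means were higher in both genes and the libraries overlapped in both. Without the doubted libraries the differences were 19.7 at Nqo1 and 8.94 at Keap1 (adjusted p = 0.999 for both). In unstimulated BMDM the smallest p values belonged to Srxn1 (80.9 in diabetic and 71.8 in control, 9.12 ± 7.62) and Gclm (76.1 and 82.6, −6.51 ± 6.45), each with an adjusted p of 1.00.

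Txnrd1 in HSC was the one promoter whose diabetic and control libraries did not overlap. H3K4me3 was at 55.2 to 75.9 (median 68.9) in diabetic HSC and at 76.8 to 83.4 (median 81.5) in control HSC. The gap between the groups was narrow, and 18 of 17255 promoters (0.104%) showed such a separation in this direction. In the other direction 42 promoters did. The difference of −12.7 ± 7.30 was not called (limma, adjusted p = 1.00). The fit takes its error from all 6 groups, and in BMDM Txnrd1 ranged from 44.4 to 95.3. In H3K27ac the same promoter was at 74.8 to 87.6 (median 86.4) in diabetic and 80.7 to 96.4 (median 87.0) in control HSC.

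**Figure D5:**
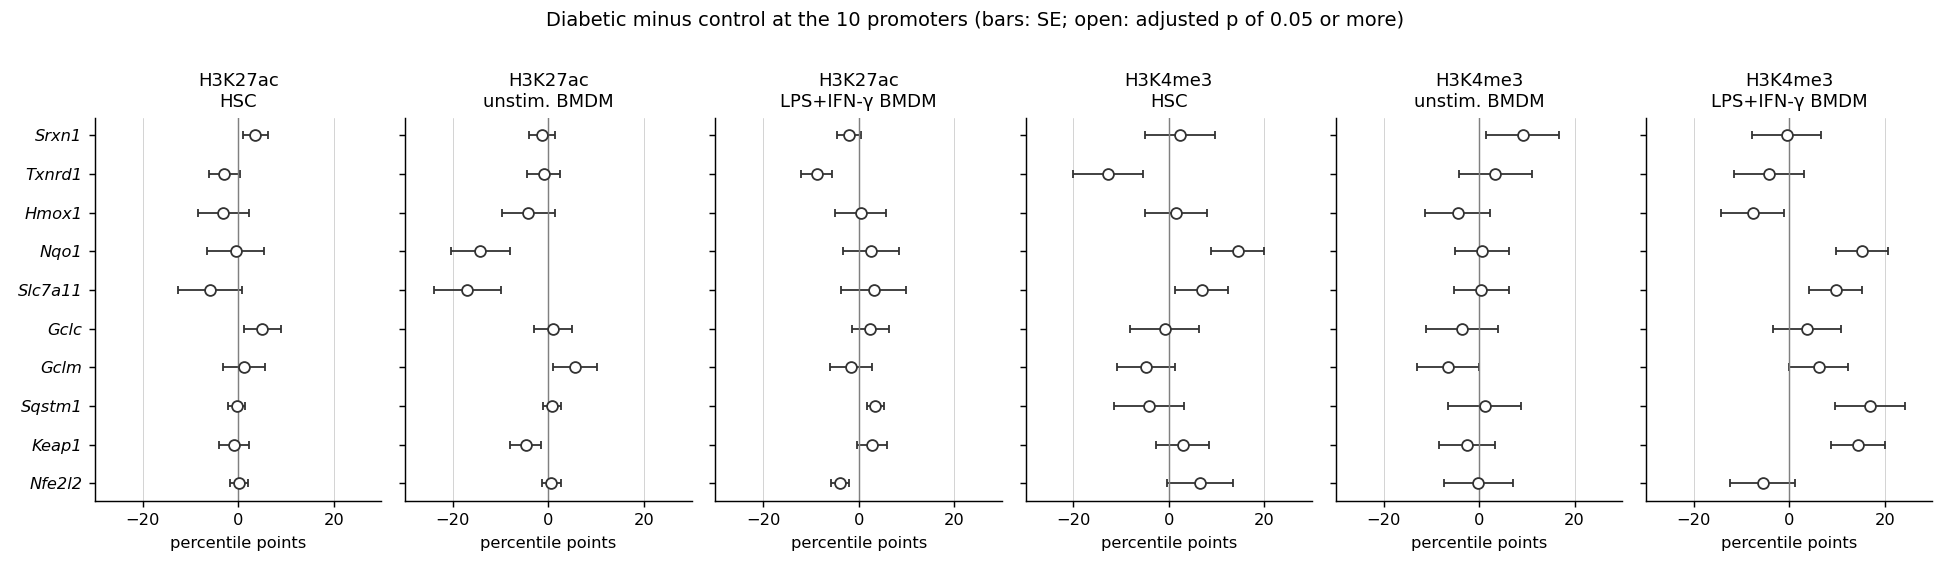
Diabetic minus control difference in promoter percentile points for the 10 genes in each cell state and mark, with bars for 1 SE, all open because no adjusted p was under 0.05. The points farthest from 0 are Slc7a11 (−17.0) and Nqo1 (−14.3) in H3K27ac of unstimulated BMDM, and Nqo1 (14.4) in H3K4me3 of HSC and Sqstm1 (16.9), Nqo1 (15.2) and Keap1 (14.4) in that of LPS+IFN-γ BMDM.

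Whether the disease difference itself changed between cell states was tested as an interaction. Among the 10 none was called: in H3K27ac 0% of all promoters were for HSC against unstimulated BMDM and 0% for the LPS+IFN-γ response (529 and 1112 at an unadjusted p under 0.05), and in H3K4me3 0.0116% (2 promoters) and 0% were (731 and 826). The smallest p in H3K27ac was that of Slc7a11, whose fitted difference with LPS+IFN-γ was larger in diabetic than in control BMDM by 20.1 ± 9.76 points (adjusted p = 0.760), followed by Nqo1 at 16.9 ± 8.56 (adjusted p = 0.760). Without the doubted libraries these were 12.2 and 8.33 (adjusted p = 0.973 for both). Between HSC and unstimulated BMDM it was Nqo1 (13.8 ± 8.56) and Srxn1 (4.94 ± 3.73), with adjusted p values of 1.00. In H3K4me3 the LPS+IFN-γ response of Keap1 (17.0 ± 8.09) and Nqo1 (14.6 ± 7.94) had adjusted p values of 0.996, or 9.24 and 18.6 with 0.999 without the doubted libraries, and between HSC and unstimulated BMDM Nqo1 (13.8 ± 7.94) and Txnrd1 (−16.2 ± 10.6) had 0.999. At the 26 regions, no disease difference was called by limma in HSC, unstimulated or LPS+IFN-γ BMDM, beside 0.0217%, 0.0181% and 0% of all regions, and 0, 2 and 2 of the 26 had an unadjusted p under 0.05. Diabetic and control samples of a number came from different mice, and no label says whether HSC and BMDM of a number came from 1 mouse, so p values measure the spread between these libraries.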

How the data were processed

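H3K27ac and H3K4me3 ChIP-seq libraries were sequenced as single reads. The submitters' processing notes name the build GRCm38 and, with no order or settings, Trim Galore 0.3.3, cutadapt 1.8, FastQC 0.11.3, Bowtie2 2.2.6, Picard 2.18.14 and 2.19.2, bedtools 2.19.1 and MACS2 2.2.7.1. How the authors combined them is not given in the sources used here. The 70 deposited peak lists, 1 per library and 35 per mark, give each peak a score, a fold enrichment, a −log10 p-value and a −log10 q-value, with every q under 0.05, and no read counts, so read depth is unknown and the number of peaks was used in its place. The 36 input samples had no list and were not used here.

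A promoter was 1 kb to either side of any of 93513 start sites of 21938 protein-coding genes. Each list was ranked on the deposited −log10 p, as in the report, and promoters with a peak in at least 5 of 35 libraries were fitted with limma 3.58.1 in R 4.3.3 on 6 group means per mark, with a trend in the variance and Benjamini-Hochberg adjustment over all promoters or regions tested. A call is an adjusted p under 0.05. Tables and figures used Python 3.11.15, pandas 2.3.3, scipy 1.17.1, pysam 0.24.0 and matplotlib 3.10.9. The scripts were tested on simulated data.

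The members, gene lists and doubted libraries were chosen with earlier results of these data known. All 10 genes were named, with a difference for each gene called or, where none was, for the 2 smallest p. At most 6 pathway genes and 5 regions per comparison were named by smallest p. Alternatives were ranking by fold, by log2 rank, on the top 20000 peaks, at a stricter q, by summit, in a 500 bp window, without the filter, with a replicate block, without doubted libraries, without each library and, for regions, from the top 10000 peaks and by Fisher's exact test.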

Additional observations from a re-analysis of the deposited data

Results flagged for a closer look

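A library was set apart where the gap between the highest or lowest value and its neighbour, divided by the range of its group, passed Dixon's 95% critical value. For independent, normally distributed values chance does this in about 1 in 20 groups. Percentiles near the top of the scale or at the floor are not so distributed, and the groups of different genes share libraries. It happened in 18 of 120 promoter groups and 11 of 48 region groups, which is a description with no test. For Nfe2l2 H3K27ac it was control unstimulated BMDM 5 at 90.3 with the nearest other at 98.15 and control LPS+IFN-γ BMDM 2 at 95.0 with the nearest other at 98.1. For Keap1 H3K27ac it was control HSC 2 at 98.2 with the nearest other at 91.7. For Keap1 H3K4me3 it was diabetic HSC 3 at 84.6 with the nearest other at 93.2. For Hmox1 H3K27ac it was diabetic HSC 6 at 21.6, without a peak, with the nearest other at 49.2. For Hmox1 H3K4me3 it was diabetic unstimulated BMDM 2 at 55.2 with the nearest other at 43.5 and control LPS+IFN-γ BMDM 3 at 80.0 with the nearest other at 54.9. For Gclm H3K4me3 it was control HSC 5 at 81.6 with the nearest other at 95.85. For Gclc H3K27ac it was diabetic HSC 5 at 87.5 with the nearest other at 79.7 and control unstimulated BMDM 5 at 76.7 with the nearest other at 65.55. For Gclc H3K4me3 it was diabetic HSC 5 at 67.3 with the nearest other at 87.3. For Nqo1 H3K27ac it was control unstimulated BMDM 4 at 16.1, without a peak, with the nearest other at 39.5. For Slc7a11 H3K27ac it was diabetic LPS+IFN-γ BMDM 3 at 97.8 with the nearest other at 58.0. For Slc7a11 H3K4me3 it was control HSC 6 at 37.1 with the nearest other at 19.6. For Srxn1 H3K27ac it was control HSC 4 at 76.35 with the nearest other at 89.5 and diabetic LPS+IFN-γ BMDM 1 at 83.3 with the nearest other at 97.4. For Sqstm1 H3K27ac it was diabetic unstimulated BMDM 2 at 95.1 with the nearest other at 99.1. For Sqstm1 H3K4me3 it was diabetic unstimulated BMDM 2 at 53.3 with the nearest other at 86.1.

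Among the regions with values in the report the following libraries stood apart in H3K27ac. For Nfe2l2 region 1 it was diabetic HSC 5 at 87.1 with the nearest other at 97.1. For Nfe2l2 region 3 it was diabetic HSC 5 at 13.03, without a peak, with the nearest other at 68.4 and diabetic unstimulated BMDM 1 at 54.2 with the nearest other at 27.2. For Slc7a11 region 1 it was control HSC 2 at 26.1 with the nearest other at 17.2 and control LPS+IFN-γ BMDM 3 at 48.9 with the nearest other at 83.35. For Hmox1 region 2 it was diabetic unstimulated BMDM 6 at 50.6 with the nearest other at 82.6. For Keap1 region 4 it was diabetic unstimulated BMDM 1 at 51.5 with the nearest other at 81.7 and diabetic LPS+IFN-γ BMDM 3 at 53.05 with the nearest other at 85.1. For Gclc region 1 it was control unstimulated BMDM 2 at 90.2 with the nearest other at 95.35 and diabetic unstimulated BMDM 1 at 74.0 with the nearest other at 90.3 and control LPS+IFN-γ BMDM 3 at 64.2 with the nearest other at 92.5. The part of list length and of library quality in these values was not tested.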

How the results depend on the processing

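Of 19 counts of called members 14 were 0 (13 disease results and H3K4me3 after LPS+IFN-γ), and none of their alternatives moved. Of 47 alternatives to the other 5, leaving out single libraries aside, 14 moved by over 1.5 times. Ranking by fold enrichment gave 3 promoters in place of 5 in H3K27ac (4002 of all 16981 called) and 1 in place of 3 in H3K4me3 (890 of 17255) between HSC and unstimulated BMDM, and a log2 rank also gave 1 in H3K4me3 (1799 of 17255). The single H3K27ac promoter called after LPS+IFN-γ became 0 by fold enrichment, log2 rank and the replicate block (104, 350 and 276 of all 16981) and without the filter (308 of 21938), and 3 without the doubted libraries (1139 of 16908). The 15 regions called between HSC and unstimulated BMDM became 4 on the top 20000 peaks (5078 of all 13677), 4 when regions came from the top 10000 peaks (2998 of 5079) and 3 by Fisher's exact test of holders (3650 of 10928, 12 of the 26 testable). The 1 region after LPS+IFN-γ became 2 on the top 20000 peaks (629 of 13677), 4 without the doubted libraries (2592 of 27640) and 0 by Fisher's exact test (0 of 10339, 11 of the 26 testable). Fewer regions could be tested on shorter lists, and the cause of the other shifts was not tested.

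Leaving out 1 library gave 4 to 5 and 0 to 2 H3K27ac promoters for the HSC and LPS+IFN-γ comparisons, 0 to 3 H3K4me3 promoters for HSC, and 13 to 16 and 1 to 4 regions. The H3K27ac count after LPS+IFN-γ was 2 without control or diabetic LPS+IFN-γ 5, and the region count was 3 without control unstimulated 6 and 4 without control LPS+IFN-γ 5. The H3K4me3 count was 0 without diabetic unstimulated 5 and 1 without diabetic HSC 1, control unstimulated 2 or diabetic unstimulated 1. Gclm H3K4me3 in diabetic minus control unstimulated BMDM reversed from −6.51 to 1.42 by fold enrichment (adjusted p = 0.998).

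Same-numbered libraries correlated at −0.293 to 0.464 in their deviations from the group means, diabetic with control libraries included. Between HSC and unstimulated BMDM the median correlations were −0.0555 to 0.086, and 0 to 2 libraries correlated best with their own number. Between LPS+IFN-γ and unstimulated BMDM the medians were 0.036 to 0.17, and 2 to 3 of 5 or 6 libraries did. The labels do not say whether these BMDM were paired cultures. The numbers were not taken as pairs in the main fit, and a block on them was an alternative. With the replicate block Slc7a11 after LPS+IFN-γ was at 15.9 (adjusted p = 0.0741), and no other count moved by over 1.5 times.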
